A study of Brassica napus with 6 samples.

Results

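The cleavage sites described here are those that the degradome lists of Brassica napus (oilseed rape) shoot apices give for predicted miRNAs, the small RNAs named novel_mir followed by a number. A degradome library captures the 5′ ends of cut transcripts, and a site is an mRNA with the position of the cut on it. Every record with such a name was taken, which gave 360 sites of 617 in all, from 464 records of 177 predicted miRNAs on 340 mRNAs. The rod-like library listed 226 of these sites in 247 records of 111 predicted miRNAs, and the normal library 194 sites in 217 records of 107. The other 257 sites belonged to 39 miRNAs of named families. Plants of a rod-like form and normal plants stood in 1 field and were 3 months old, at early bolting. Each RNA sample pooled the apices of 6 plants, and each plant type had 1 degradome library. The labels name no genotype, line or treatment for either plant type. No mRNA of these sites matched the gene name table (0 of 340), so targets are given by identifier and the tissue could not be checked against marker genes.

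In plants, miRNAs are cut from hairpin precursors by DCL1 and loaded mostly into AGO1, which prefers a 5′ uridine and slices a paired mRNA opposite the middle of the miRNA. Small RNAs of 24 nt are typically products of DCL3 that enter AGO4 and related proteins, which favour a 5′ adenosine, and they are best known for guiding DNA methylation, not for cutting mRNA. Brassica napus joins an A and a C subgenome, so most genes have a close copy in each, and mRNA names begin with BnaA or BnaC accordingly.

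Sequences are shown for the miRNAs on which the results turn, written 5′ to 3′ in DNA letters as deposited, with bases 2 to 8, the seed, in capitals. The first 3 are 24-nt miRNAs with many sites or with category 0 sites in both libraries. The next 5 are shorter miRNAs with the most sites, the best-paired sites or category 0 sites in both libraries.
novel_mir_219: aGAGACGGtttcttatattctgct
novel_mir_367: aGCGGGAGcgagaggagcaggagc
novel_mir_855: aAGATTATgttttcttgtagtggt
novel_mir_246: tGATCTTGtgttgtgatgata
novel_mir_1040: tAGGGTCTaagacttgggtt
novel_mir_253: tTGTTGTAtgatgacgcgtcgg
novel_mir_49: tCGACGAGaggaacacgatggt
novel_mir_6: tAGCTCCAgactcattcactca

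Of the 177 predicted miRNAs, 144 were 24 nt long (81.4%) and 33 were shorter. The shorter ones comprised 11 of 23 nt, 13 of 22 nt, 8 of 21 nt and 1 of 20 nt. An A stood first in 126 of the 144 24-nt sequences (87.5%, Clopper-Pearson 95% interval 81 to 92.4), against 9 of the 33 shorter ones (27.3%, 13.3 to 45.5). A T stood first in 7 of 144 24-nt sequences (4.86%, 1.98 to 9.76) and in 16 of 33 shorter ones (48.5%, 30.8 to 66.5). The named miRNAs began with T in 28 of 39 (71.8%, 55.1 to 85.0). The intervals of the 24-nt and the shorter class do not overlap for either base, and the shorter class lay between the 24-nt class and the named miRNAs for both. Median GC content was 37.5% in the 24-nt class, 45.5% in the shorter class and 52.4% in the named miRNAs. These intervals, like all below, treat entries as independent and cover counting error only.

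**Figure D1:**
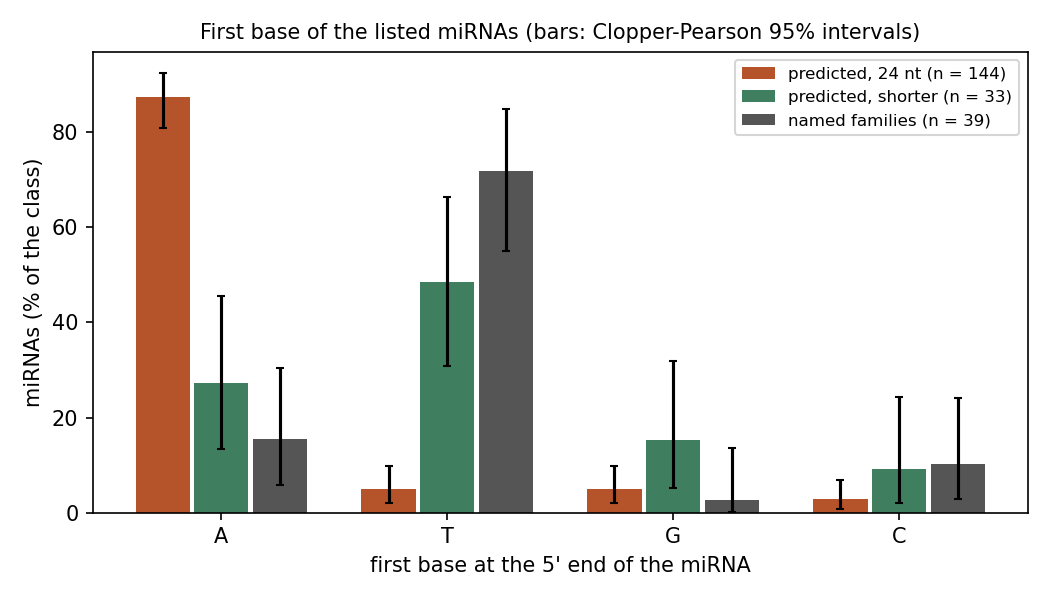
Share of miRNAs (y axis, % of the class) that begin with each base (x axis) among 144 24-nt predicted, 33 shorter predicted and 39 named miRNAs, with Clopper-Pearson 95% intervals as bars. The A column of the 24-nt class stands at 87.5% and the T column of the named families at 71.8%.

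All 177 sequences were distinct, and none equalled a named miRNA of the lists. They held 164 different seeds, and 10 seeds were shared by 23 predicted miRNAs, none of them with a named miRNA. The seed GAGACGG of novel_mir_219 recurred in novel_mir_62 and novel_mir_564. Of these novel_mir_62 differs from novel_mir_219 and from novel_mir_564 at 1 base each.
novel_mir_62: aGAGACGGgttcttatattctgct
novel_mir_564: aGAGACGGgttcttatattctgat
With at most 1 mismatch, 11 predicted miRNAs overlapped another one in 6 pairs. All but 1 of these pairs overlapped over 24 nt, and novel_mir_405 and novel_mir_978 over 22 nt. Of the sequences printed, novel_mir_62 was in 2 of these pairs, with novel_mir_219 and novel_mir_564.

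The category of a site, from 0 to 3, and its score and P-value are the authors', from their target caller. How categories were defined is not given in the sources used here. In degradome work category 0 usually marks the strongest cut signal of a transcript, and it is read here as the best-supported class, which is an assumption. Every site had 1 category per library, also where several miRNAs listed it. In the rod-like library 13 of 163 sites of 24-nt miRNAs were in category 0 (7.98%, 4.31 to 13.3), against 12 of 65 sites of shorter miRNAs (18.5%, 9.92 to 30.0). The normal library had 7 of 148 (4.73%, 1.92 to 9.50) for 24-nt miRNAs and 5 of 48 (10.4%, 3.47 to 22.7) for shorter ones. The 24-nt share was the lower one in both libraries, with intervals that overlap. Category 0 held 45.9% of all 416 sites of the rod-like library and 39.9% of all 416 sites of the normal library. For named families alone it held 87.4% (81.8 to 91.7) in the rod-like library and 69.4% (62.9 to 75.4) in the normal library, above both classes of predicted miRNAs in each. No test of these differences was made, because sites of 1 miRNA share values and each plant type has 1 library.

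**Figure D2:**
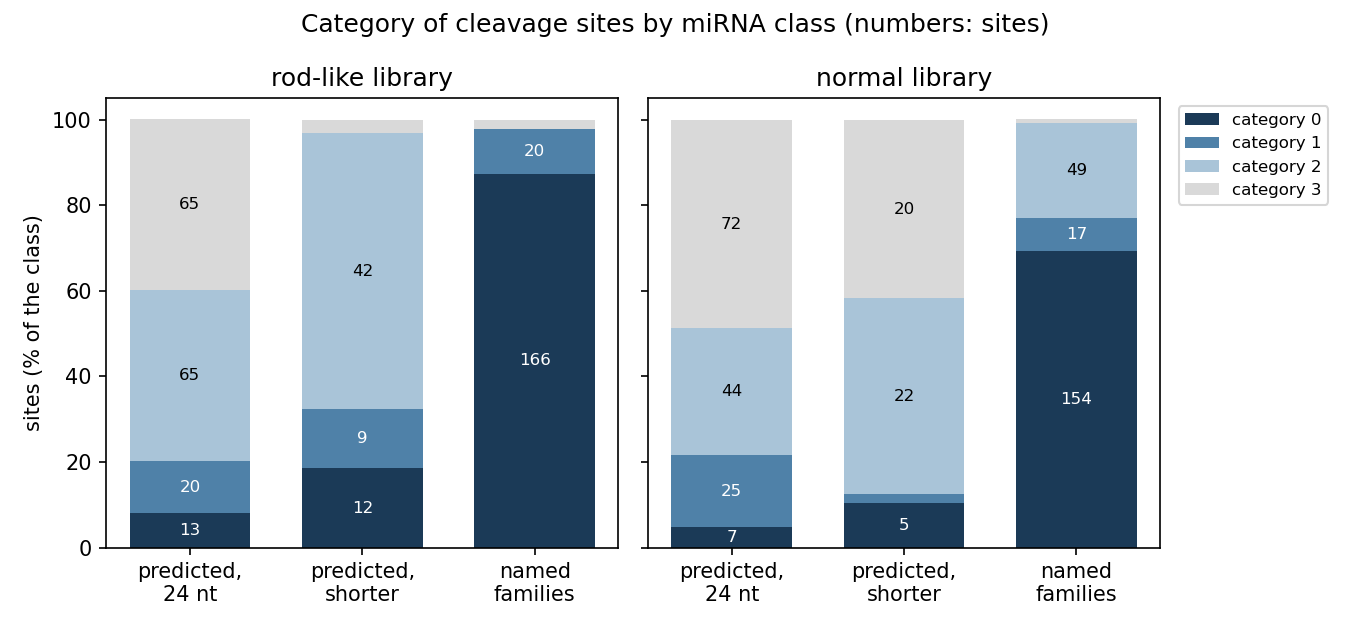
Sites by category (stacked, % of the class on the y axis, number of sites inside the bars) for 24-nt predicted, shorter predicted and named miRNAs, in the rod-like and the normal library. Category 0, at the foot of the bars, holds 13 and 12 sites of the predicted classes in the rod-like library and 7 and 5 in the normal library, against 166 and 154 sites of named families.

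At the other end, category 3 held 65 of 163 sites of 24-nt miRNAs in the rod-like library (39.9%, 32.3 to 47.8) and 2 of 65 sites of shorter ones (3.08%, 0.375 to 10.7). For the normal library the counts were 72 of 148 (48.6%, 40.4 to 57) and 20 of 48 (41.7%, 27.6 to 56.8). The classes thus stood apart in category 3 in the rod-like library and overlapped in the normal library. In the rod-like library novel_mir_246 with 29 sites and novel_mir_1040 with 14 sites held 43 of the 65 sites of shorter miRNAs, in categories 0 and 2.

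Sites of 1 predicted miRNA mostly fell in 1 category. In the rod-like library 28 of 39 predicted miRNAs with several sites had all of them in the same category, and in the normal library 33 of 39. For named miRNAs the counts were 24 of 33 in the rod-like library, a similar share, and 13 of 27 in the normal library. All 14 sites of novel_mir_1040 in the rod-like library were in category 2, all 16 sites of novel_mir_253 in the normal library were in category 2, and novel_mir_237 had 12 sites in the rod-like and 9 in the normal library, all in category 3. The P-value followed the miRNA and the category rather than the pairing. Among groups of several records with the same predicted miRNA and category, 38 of 40 in the rod-like and 34 of 37 in the normal library had 1 P-value. Of these groups 24 and 22 held more than 1 score. Most such groups of named miRNAs also had 1 P-value, 29 of 37 in the rod-like and 25 of 32 in the normal library. For novel_mir_246 in the rod-like library, 3 sites in category 0 with scores from 0 to 2 shared a P-value of 0.004, and 26 sites in category 2 with scores from 0 to 4.5 shared a P-value of 0.018. The highest P-value of any record was 0.048.

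**Figure D3:**
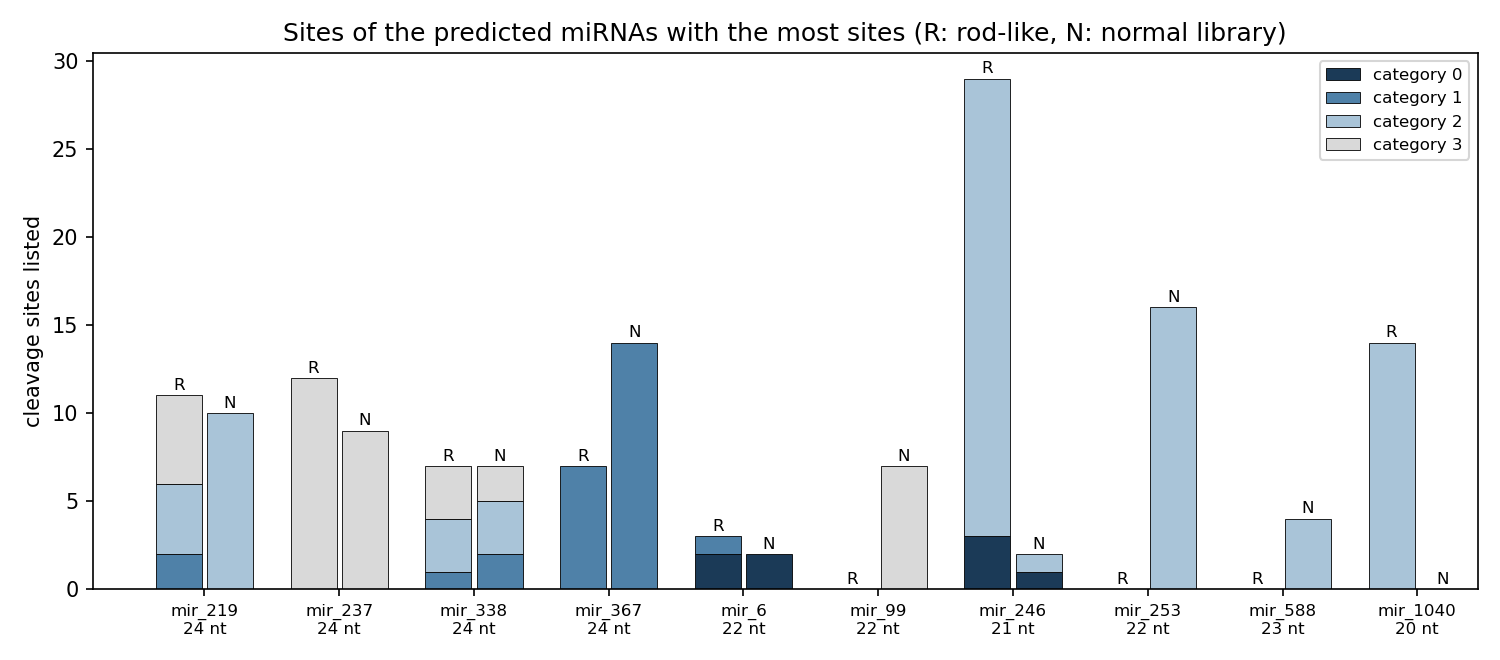
Sites listed (y axis, number) for the 3 predicted miRNAs with the most sites of each length class and library, with the rod-like bar (R) left of the normal bar (N) and colours for categories. Most bars are of 1 colour, and novel_mir_246, novel_mir_253 and novel_mir_1040 have nearly all their sites in 1 library.

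The score equals the number of mismatches and gaps plus 0.5 for each G:U pair, without extra weight for any position. This rule gave the deposited score for 1088 of 1089 records, so a low score is a close match. Scores ran from 0 to 4.5. The median best score per site was 3.5 for 24-nt and 4 for shorter miRNAs in the rod-like library, and 3.5 for both in the normal library, against 2 for named families in both. Without records in which the mRNA line holds N, an undetermined base that the score counts as a match, the medians were 4 for both classes in the rod-like library, and 4 for 24-nt and 3.5 for shorter miRNAs in the normal library. With categories 0 and 1 alone they were 4 for 24-nt and 3.5 for shorter miRNAs in both libraries, so the order of the classes depended on the records kept. Scores of at most 2 were found at 11 of 163 sites of 24-nt miRNAs in the rod-like library (6.75%, 3.42 to 11.8) and at 11 of 65 sites of shorter ones (16.9%, 8.76 to 28.3). In the normal library they were found at 10 of 148 (6.76%, 3.29 to 12.1) and 4 of 48 (8.33%, 2.32 to 20.0). For named families the shares were 64.7% (57.5 to 71.5) in the rod-like and 64.9% (58.2 to 71.1) in the normal library.

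Every record of both libraries, predicted or named, was paired by Watson-Crick bases at miRNA bases 10 and 11, between which plant miRNAs guide the cut. With no exception in 1089 records, such pairing may have been a condition for entry to the lists, which was not tested. It is not used here as evidence of cutting. The classes differed at other bases and in gaps. The whole seed was paired in 25 of 181 records of 24-nt miRNAs in the rod-like library (13.8%, 9.14 to 19.7), in 15 of 66 of shorter ones (22.7%, 13.3 to 34.7) and in 188 of 307 of named families (61.2%, 55.5 to 66.7). The shares in the normal library were 15.4% (10.3 to 21.7), 12.5% (4.73 to 25.2) and 63.2% (57.6 to 68.5), in the same order. Alignments with a gap made up 81.8% (75.4 to 87.1) of 24-nt, 83.3% (72.1 to 91.4) of shorter and 30.0% (24.9 to 35.4) of named records in the rod-like library. They made up 85.2% (78.9 to 90.2), 62.5% (47.4 to 76.0) and 26.7% (21.9 to 32.0) in the normal library. Both classes of predicted miRNAs had fully paired seeds less often and gaps more often than named families in each library, with intervals that do not overlap. At miRNA base 1 the order was turned round. It was paired in 92.3% of 24-nt records and 69.1% of named records in the rod-like library, and in 93.5% and 74.8% in the normal library. Bases 7 and 14 also showed this order for 24-nt records in both libraries, by small margins at base 7. In the rod-like library base 7 was paired in 85.6% of 24-nt and 80.1% of named records, and base 14 in 68.5% and 58.3%. The normal library gave 84.6% and 81.8% at base 7, and 67.5% and 59.1% at base 14. Shorter records were above named ones at bases 1 and 14 in both libraries. At base 7 they were above them in the rod-like library (87.9%) and below them in the normal library (66.7%). No intervals were computed for single bases.

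**Figure D4:**
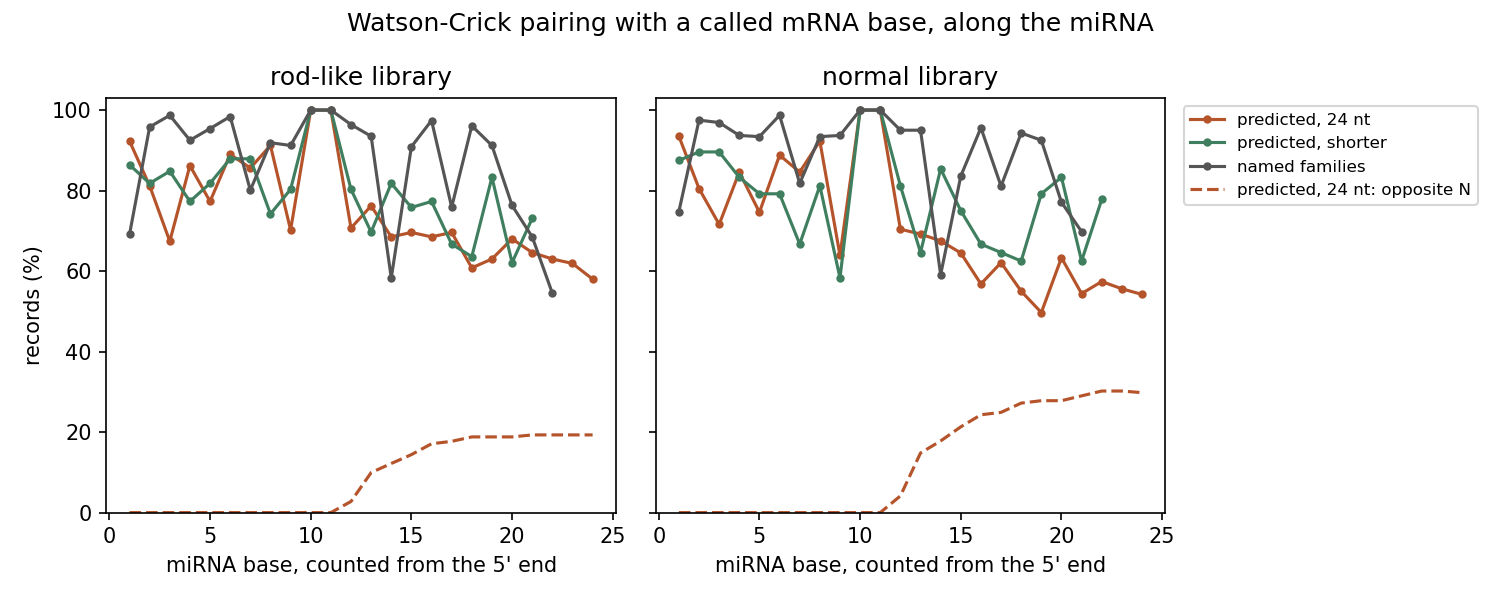
Records (y axis, %) in which each miRNA base (x axis, counted from the 5′ end) was paired by Watson-Crick bases with a called mRNA base, for 24-nt predicted, shorter predicted and named miRNAs; bases reached by under 20 records are left out of these lines. All lines meet at 100% at bases 10 and 11, and the dashed line gives the share of 24-nt records with an N opposite the base, which is 0 up to base 11 and 19.3% in the rod-like and 29.8% in the normal library at base 24.

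Part of the 24-nt sites rested on mRNA bases that were not called. In 92 records the mRNA line held N, all 92 times as 1 run at the 5′ end of the site, opposite the 3′ part of the miRNA. All 958 of these N were drawn as pairs, and the score counted them as matches. Among sites of 24-nt miRNAs, 25 of 163 in the rod-like library (15.3%, 10.2 to 21.8) and 37 of 148 in the normal library (25.0%, 18.3 to 32.8) had such a record. Among sites of shorter miRNAs there were 2 of 65 (3.08%, 0.375 to 10.7) in the rod-like and 3 of 48 (6.25%, 1.31 to 17.2) in the normal library, and named families had none of 190 and none of 222. Over all sites the share was 6.01% in the rod-like and 9.13% in the normal library. The runs were 3 to 13 bases long, and 8 to 17 called bases, with a median of 10, were paired in these records. Counted as unpaired, the N would put their scores at 7.5 to 15.5, and none of the 92 would keep a score of at most 4.5.

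The following sites show this, with the N in capitals, 5′ to 3′ on the mRNA. They are those of novel_mir_367 on BnaAnng33710D at positions 51, 53 and 55, listed in both libraries, of novel_mir_338 on BnaC07g21160D at position 16, also listed in both, and of novel_mir_810 on BnaCnng75100D at position 52, listed in the normal library with the lowest score of such a record, 1.5.
novel_mir_367 at 51: NNNNNNNNNNNNctctctctctct
novel_mir_367 at 53: NNNNNNNNNNctctctctctctct
novel_mir_367 at 55: NNNNNNNctctctctctctctct
novel_mir_338 at 16: NNNNNNNNNNNNctctctctct
novel_mir_810 at 52: NNNNNNNNNNNNNaatttcgattt
All 7 sites of novel_mir_367 in the rod-like library and all 14 in the normal library were of this kind, as were all 7 of novel_mir_338 in each. BnaAnng33710D had the most sites of 24-nt miRNAs, 5 in each library, with BnaCnng60440D equal to it in the normal library. On BnaAnng33710D the 5 sites of novel_mir_367 lay at positions 51 to 59 in steps of 2 along a run of CT repeats. These are neighbouring placements of 1 miRNA on 1 stretch rather than separate stretches. Positions of at most 60 held 40 of the 43 sites with N of 24-nt miRNAs over both libraries, and 15 of the 25 mRNAs bearing them had names of unplaced genes, with nn in place of a chromosome number. None of the sites with N was in category 0. Of the category 1 sites of 24-nt miRNAs, 8 of 20 in the rod-like and 14 of 25 in the normal library held N. Of these, 7 of the 8 and all 14 were placements of novel_mir_367. They count as separate sites here and in the shares of sites with N above, so these shares rest in part on 1 miRNA.

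Sharing between libraries was low for predicted miRNAs, and lower for the shorter class. Of 163 sites of 24-nt miRNAs in the rod-like library, 55 were also listed for 24-nt miRNAs in the normal library (33.7%, 26.5 to 41.6), and these 55 made up 37.2% (29.4 to 45.5) of the 148 there. Of 65 sites of shorter miRNAs in the rod-like library 5 were shared (7.69%, 2.54 to 17.0), or 10.4% (3.47 to 22.7) of the 48 in the normal library. Over all miRNAs 51.7% of the sites of each library were listed in the other, and for named families 81.6% (75.3 to 86.8) of rod-like and 69.8% (63.3 to 75.8) of normal sites were. Without records holding N, the 24-nt shares were 26.1% (19.0 to 34.2) of rod-like and 32.4% (23.9 to 42.0) of normal sites, still above those of the shorter class at 7.94% (2.63 to 17.6) and 11.1% (3.71 to 24.1). Without the miRNA with the most sites of each class and library, the 24-nt shares were 32.5% (25.1 to 40.5) and 37.5% (29.4 to 46.2). Those of the shorter class were then 11.1% (3.11 to 26.1) and 15.6% (5.28 to 32.8). The order held, with intervals of the classes that overlap in each library. Among the sites that were in categories 0 and 1 in the normal library, the classes changed places, on few sites. There 9 of 32 sites of 24-nt miRNAs (28.1%, 13.7 to 46.7) and 3 of 6 of shorter ones (50.0%, 11.8 to 88.2) were shared. For this count a site could be in any category in the rod-like library.

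**Figure D5:**
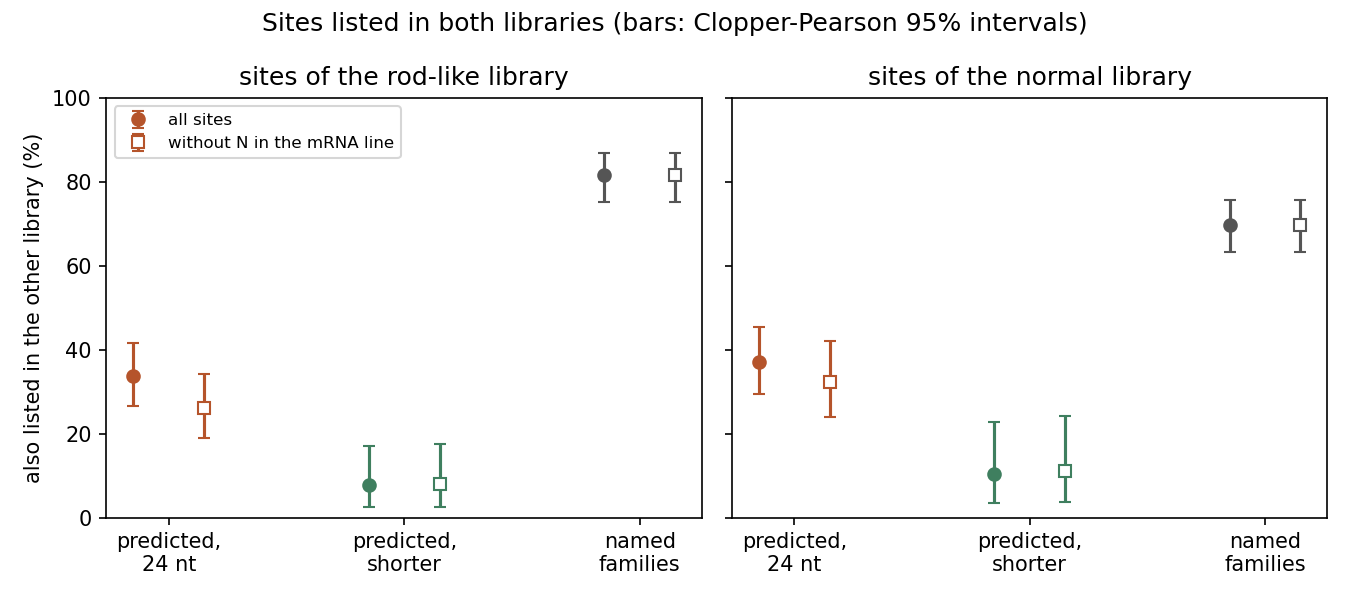
Share of the sites of the rod-like (left) and the normal library (right) that the other library also listed for the same class (y axis, %), with all sites as filled circles and without N in the mRNA line as open squares; bars are Clopper-Pearson 95% intervals. The 24-nt class stands at 33.7% and 37.2%, the shorter class at 7.69% and 10.4%, and the named families at 81.6% and 69.8%.

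Much of this lay in which miRNAs were listed at all. Of 177 predicted miRNAs 41 had sites in both libraries (23.2%), 70 in the rod-like library alone and 66 in the normal library alone, against 29 of 39 named miRNAs in both (74.4%). By length, 36 of 144 24-nt miRNAs (25.0%) and 5 of 33 shorter ones (15.2%) were in both. Within the 24-nt miRNAs of both libraries, 55 of 87 rod-like sites (63.2%) and 55 of 77 normal sites (71.4%) were shared. Within the 5 shorter ones the 5 shared sites were 13.5% of 37 rod-like and 71.4% of 7 normal sites. Most of the rod-like sites that were not shared belonged to novel_mir_246, with 29 sites in the rod-like and 2 in the normal library, 1 of them shared. The 14 sites of novel_mir_1040 were in the rod-like library alone, and the 16 sites of novel_mir_253, 7 of novel_mir_99 and 4 of novel_mir_588 in the normal library alone. At 24 nt, novel_mir_219 had 11 rod-like and 10 normal sites with 7 shared, and novel_mir_237 had 12 and 9 with 6 shared. Of the 60 shared sites of predicted miRNAs 41 had the same category in both libraries, 10 a lower one in the rod-like library and 9 a higher one there.

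Only 5 sites of predicted miRNAs were in category 0 in both libraries, and they belonged to 2 miRNAs. The 24-nt novel_mir_855 was listed at position 1373 of BnaA05g29140D, of its neighbour by name BnaA05g29150D and of BnaC05g43610D, each with a score of 4. The letters of the site were the same in all 3 mRNAs. The 22-nt novel_mir_6 was listed at position 414 of BnaC03g06500D with a score of 3 and at position 525 of BnaC01g07090D with a score of 3.5. These sites are shown for their category in both libraries, with the bases opposite miRNA bases 10 and 11 in capitals.
novel_mir_855 site: atcacaacagaaAAtattatctt
novel_mir_6 site, BnaC03g06500D: agagagaaagaGTctggagcta
novel_mir_6 site, BnaC01g07090D: tgaatgtgaatgaGTcaggagctg

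The best-paired category 0 sites were those of shorter miRNAs in the rod-like library. The 22-nt novel_mir_49 matched position 161 of BnaCnng38740D with a score of 0 and position 134 of BnaA03g59450D with a score of 1. In the normal library the first of these was not listed for a predicted miRNA and the second was in category 2 with the same score. The 21-nt novel_mir_246 matched position 4087 of BnaC08g11510D with a score of 0 position 1174 of BnaC03g62020D with a score of 1 and position 763 of BnaC03g04690D with a score of 2, none of them listed in the normal library. There its category 0 site was position 1120 of BnaC01g40280D, with a score of 2, which was in category 2 in the rod-like library. The sites with scores of 0 and 1 are printed as the closest matches in category 0, capitals as before.
novel_mir_49 site, BnaCnng38740D: accatcgtgttCCtctcgtcga
novel_mir_49 site, BnaA03g59450D: accatcgtgatCCtctcgtcga
novel_mir_246 site, BnaC08g11510D: tatcatcacaACacaagatca
novel_mir_246 site, BnaC03g62020D: tatcatcaccACacaagatca

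The closest category 0 sites of the 24-nt class were looser than these. The close matches of the shorter class in the rod-like library came from novel_mir_49 and novel_mir_246 alone. Its other category 0 sites there scored 3 to 4.5. The best 24-nt site in the rod-like library was that of novel_mir_322 at position 731 of BnaCnng61380D with a score of 2, which was in category 2 in the normal library. Next came novel_mir_118 at position 110 of BnaC02g03770D with 3.5 and novel_mir_957 at position 446 of BnaAnng16720D with 4, neither site listed in the normal library. In the normal library novel_mir_1093 at position 1118 of BnaC03g26770D and novel_mir_888 at position 801 of BnaC08g02170D scored 4, and neither site was listed in the rod-like library. The other leading category 0 sites of the shorter class in the normal library were those of novel_mir_1969 at position 820 of BnaA08g13900D with a score of 3.5 and of novel_mir_1448 at position 760 of BnaC04g39480D with a score of 4.

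BnaA mRNAs bore 79 of 163 sites of 24-nt miRNAs in the rod-like library (48.5%, 40.6 to 56.4) and 27 of 65 sites of shorter ones (41.5%, 29.4 to 54.4). Of the sites of 24-nt miRNAs in the normal library 68 were on BnaA, 79 on BnaC and 1 on another mRNA, a BnaA share of 46.3% of the BnaA and BnaC sites (38 to 54.7), against 21 of 48 of shorter ones (43.8%, 29.5 to 58.8). The shares over all sites were 46.2% in the rod-like and 44.1% in the normal library, inside each of these intervals. With categories 0 and 1 alone the BnaA shares in the rod-like library were 60.6% (42.1 to 77.1) for 24-nt miRNAs on 33 sites and 23.8% (8.22 to 47.2) for shorter ones on 21 sites. The normal library then gave 48.4% (30.2 to 66.9) for 24-nt miRNAs on 32 sites and 16.7% (0.421 to 64.1) for shorter ones on 6 sites. The intervals of the classes overlap in each library, and the share over all sites of these categories was not computed. Unplaced genes bore 20.9% of 24-nt and 16.9% of shorter sites in the rod-like library, against 10.5% of named sites. In the normal library they bore 27.7% of 24-nt and 12.5% of shorter sites, against 10.4% of named sites.

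Sites often came as copies. Leaving out records with N, 75 of 201 sites of predicted miRNAs in the rod-like library (37.3%, 30.6 to 44.4) and 67 of 156 in the normal library (42.9%, 35.1 to 51.1) had the same letters as a site of the same miRNA on another mRNA. They formed 33 groups in each library, and in each 27 of the 33 joined BnaA and BnaC mRNAs. The members of a group were in the same category in 28 rod-like and 31 normal groups. By class the shares were 38.4% (30.3 to 47.1) for 24-nt and 34.9% (23.3 to 48.0) for shorter miRNAs in the rod-like library, and 44.1% (34.7 to 53.9) and 40.0% (25.7 to 55.7) in the normal library. Named families had more, at 84.2% (78.2 to 89.1) of rod-like and 80.2% (74.3 to 85.2) of normal sites. The largest group of predicted miRNAs was that of novel_mir_393, with 6 mRNAs of the rod-like library, 3 BnaA and 3 BnaC, all in category 3. Its site is printed because the same letters recur on both subgenomes, capitals as before.
novel_mir_393 site: ctcatcactccTTccattctct
The records give only the letters of the site, so whether degradome tags could tell such copies apart was not examined. How the authors assigned tags that match several mRNAs is not given in the sources used here.

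No site of either length class was also listed for a named family in its library, out of 226 in the rod-like and 194 in the normal library. None lay within 2 nt of one. The intervals of this share of 0 reached 2.24% for 24-nt and 5.52% for shorter miRNAs in the rod-like library. They reached 2.46% and 7.4% in the normal library. The overlap that unrelated lists of these sizes would give was not computed. The absence of common sites is therefore not read as a trait of predicted miRNAs. Of 340 mRNAs with a predicted site, 2 also had a named site, both in the rod-like library and both listed by shorter miRNAs. On BnaC09g54340D the site of novel_mir_1040 at position 2086 was in category 2 with a score of 2.5, and that of bna-miR166e, of the family that targets HD-ZIP III genes, was at position 612 in category 0 with a score of 2.5. On BnaC04g48150D the site of novel_mir_246 at position 1062 was in category 2 with a score of 4, and sites of the miR156 family, which targets SPL genes, were at position 800 in category 0.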

How the data were processed

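Degradome libraries of rod-like and normal apices, 1 each, were made from about 200 µg of total RNA, per the labels. The deposited lists give for each miRNA and mRNA pair a position, a score, a category, a P-value and an alignment; score, category and P-value are the authors', per the file headers. No source used here names the caller, its thresholds or the annotation, or gives tag counts, so depth is unknown. Records were parsed with Python 3.11.15. Class length is that of the miRNA line without gaps. A site listed by both classes counts in each (2 sites per library). Intervals are exact binomial (SciPy 1.17.1). Reading of the records was tested on simulated alignments without gaps or G:U pairs. The score rule for gaps and G:U pairs was checked against the deposited scores only. No test was made: each plant type has 1 library, and sites share miRNAs. Small RNA counts were not used here, since degradome names run to 2242 and the small RNA list to 327. Of the 177 predicted names, 55 are in that list. Named sites are the 5 of lowest category and score per class and library, the 3 miRNAs with the most sites, the mRNA with the most, and category 0 sites of both libraries; novel_mir_810, novel_mir_393, the seed group of novel_mir_219 and mRNAs shared with named families were added after their values were seen. Members and lists were chosen with earlier results of these data known. The miRNA base opposite the cut was not computed, since records give no start of the alignment.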

Additional observations from a re-analysis of the deposited data

How the results depend on the processing

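Over 20 values (5 measures for 2 length classes in 2 libraries) and 11 alternatives, 139 of 146 recomputed values stayed within the 95% interval of the reported one. Part of that count could not have come out otherwise. The P-value limit of 0.05 left every record in place, and leaving sites out cannot change an overlap of 0. Leaving out records with N, an alternative chosen after seeing the data, took the 24-nt share listed in the other library to 26.1% of rod-like sites. Of normal sites in categories 0 and 1, the rod-like library listed 28.1% for 24-nt and 50.0% for shorter miRNAs, in any category. With categories 0 and 1 alone, the median score was 4 for 24-nt and 3.5 for shorter miRNAs in the rod-like library. This was the reverse of the reported order. The BnaA share was then 60.6% for 24-nt and 23.8% for shorter miRNAs in the rod-like library, on 33 and 21 sites. For shorter ones in the normal library it was 16.7%, on 6 sites. The intervals of the 2 classes overlapped in each library. The cause of these shifts was not tested. The lower category 0 share of 24-nt miRNAs held in all 6 alternatives in both libraries. Their higher sharing held in all 10 in the rod-like and in 9 of 10 in the normal library. Their lower median score in the rod-like library held in 5 of 7, with no difference in 1; in the normal library, where the medians were equal, they stayed equal in 5 of 7. Their higher BnaA share held in all 8 in the rod-like and in 6 of 8 in the normal library. The P-value limit, counted among the alternatives for each order, removed nothing and so could not change one. For sharing, requiring the same miRNA name or allowing any miRNA left every value as reported. No paired analysis was possible because the 2 degradome libraries share no replicate number and no test was made.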
